A study of Mus musculus with 12 samples.

Results

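Tnfaip3, which encodes A20, and 6 further genes whose products restrain ubiquitin-dependent signalling from Toll-like receptors (Tnip1, Tnip2, Tnip3, Cyld, Tank and Tollip) were followed in mouse peritoneal macrophages exposed to MALP-2. The 7 genes were chosen by name for their function, with earlier results of these data known. Of the 7, 6 have a probeset under their symbol in the deposited data, out of 18194 genes read. Tnip3 has none under its symbol in the platform annotation used here and was not read. Where a gene has several probesets, the brightest on average (leaving out the array labelled double knockout at 0 h) was taken as its main one. All 6 main probesets passed the filter on low values described further on.

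Receptor complexes that signal through MyD88 and the IRAK kinases assemble ubiquitin chains, attached by TRAF6 and by the linear ubiquitin assembly complex. These chains recruit the TAK1 and IKK kinases, and IKK frees NF-kB. A20 binds such chains and edits or removes them, its partners ABIN1 and ABIN2 (from Tnip1 and Tnip2) bring it to the IKK subunit NEMO, and CYLD is a second enzyme that takes chains apart. TANK is an adaptor that binds TRAF proteins and the kinases TBK1 and IKKi, and restrains Toll-like receptor signalling in mouse macrophages. TOLLIP binds ubiquitin and IRAK1 near the receptor. A20 and ABIN1 are textbook targets of NF-kB, so that they form a feedback loop, whereas CYLD and TOLLIP are present before stimulation in many cell types.

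The cells were macrophages recruited to the peritoneum with thioglycollate, from mice lacking both IRAK1 and IRAK2 (the double knockout), from mice lacking IRAK2 alone (the IRAK2 knockout) and from wild-type mice. MALP-2 (a mycoplasma lipopeptide that TLR2 and TLR6 sense as a pair) was given at 100 ng/ml, and RNA was taken at 0, 2, 4 and 8 h, which makes 12 groups of 1 expression array each. The labels do not give the strain, age or sex of the mice, how many mice an array holds, or how the alleles were made. Values are log2 levels, as deposited. A level of 3.83, the median of all values on 11 arrays, served as the floor below which a gene was not counted as measured.

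The genotype labels were checked on the deleted genes. The Irak2 probeset differed from wild type by -1.28 log2 on average in the stimulated double knockout and by -1.29 in the stimulated IRAK2 knockout. The 4 Irak1 probesets lay between -1.22 and -0.24 log2 in the double knockout relative to wild type over the 3 stimulated times. On the array labelled double knockout at 0 h, 2 of them read above wild type (10.84 against 8.59 and 7.46 against 5.39), against its label, and the other 2 read below it (3.94 against 5.76 and 7.12 against 8.07). The sources used here do not place these probes inside or outside the deleted segments. That array stands apart in other ways too: its correlation with the other arrays was 0.764 to 0.804, against at least 0.954 among the other 11. On that array Tollip read 4.59, against 9.95 (IRAK2 knockout) and 9.82 (wild type) at 0 h, and Tank read 7.99, against 6.45 and 6.48. It is shown but takes no part in the main tests, and double-knockout responses were set against the mean of the IRAK2-knockout and wild-type arrays at 0 h. A response computed in this way also contains whatever separates the genotypes before stimulation. Of the 7 macrophage markers listed, 7 were at or above the floor on every IRAK2-knockout and wild-type array and 6 on every stimulated double-knockout array.

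The promoters of the 3 genes that MALP-2 raised are printed first, followed by those of 2 genes that it did not raise. They are RefSeq sequences of the GRCm38.p6 assembly, the 250 bases before an annotated transcription start, 5′ to 3′ on the strand of the gene. Capitals mark matches to the kappa-B consensus, the 10-letter site bound by NF-kB, and to the AP-1 site TGANTCA, each searched on both strands. Of the 2 Tnfaip3 and 4 Tank starts, the one whose window holds the most matches is shown.
Tnfaip3, chr10:19015411-19015660, minus strand: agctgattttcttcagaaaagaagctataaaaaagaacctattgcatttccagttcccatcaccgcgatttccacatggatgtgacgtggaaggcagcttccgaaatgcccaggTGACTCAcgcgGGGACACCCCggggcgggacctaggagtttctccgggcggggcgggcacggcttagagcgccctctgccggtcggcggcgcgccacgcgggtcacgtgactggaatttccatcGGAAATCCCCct
Tnip1, chr11:54962941-54963190, minus strand: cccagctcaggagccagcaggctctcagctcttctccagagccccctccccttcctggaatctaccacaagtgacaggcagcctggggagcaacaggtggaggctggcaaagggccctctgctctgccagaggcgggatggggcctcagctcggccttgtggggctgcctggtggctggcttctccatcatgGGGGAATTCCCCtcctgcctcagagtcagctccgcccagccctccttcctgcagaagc
Tank, chr2:61592902-61593151, plus strand: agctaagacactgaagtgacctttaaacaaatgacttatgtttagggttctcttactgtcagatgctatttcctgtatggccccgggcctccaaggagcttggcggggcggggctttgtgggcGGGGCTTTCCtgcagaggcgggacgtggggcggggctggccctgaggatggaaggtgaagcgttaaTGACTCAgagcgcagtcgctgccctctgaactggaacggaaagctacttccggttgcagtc
Cyld, chr8:88696778-88697027, plus strand: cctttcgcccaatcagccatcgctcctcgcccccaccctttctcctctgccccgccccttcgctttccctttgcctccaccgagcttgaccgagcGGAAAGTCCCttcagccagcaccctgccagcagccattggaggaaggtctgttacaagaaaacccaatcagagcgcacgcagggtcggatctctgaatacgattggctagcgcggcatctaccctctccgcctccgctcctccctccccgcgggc
Tollip, chr7:141902462-141902711, minus strand: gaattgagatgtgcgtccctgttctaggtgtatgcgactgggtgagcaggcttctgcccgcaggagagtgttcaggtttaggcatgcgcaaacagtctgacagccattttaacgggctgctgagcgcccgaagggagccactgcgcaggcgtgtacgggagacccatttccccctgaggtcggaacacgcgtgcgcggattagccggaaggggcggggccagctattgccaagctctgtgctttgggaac

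The Tnfaip3 window holds kappa-B matches that start 125 and 12 bases before the transcription start and an AP-1 match that starts 136 bases before it. In Tnip1 the kappa-B letters match in 3 overlapping frames of a single stretch, which starts 58 bases before the start of transcription. The Tank window holds a kappa-B match from base 127 and an AP-1 match from base 61 before its start, and the Cyld window a kappa-B match from base 155. Tollip has no match to either. Tnip2 and Tnip3 have 1 kappa-B match each, so that 6 of the 7 genes have at least 1 in some window, against 10.8% of all 27025 genes in the table, where 9.55% of windows hold one. Windows of a gene with several starts can overlap, as those of Tank do. AP-1 letters were found for 2 of the 7 genes, against 7.82% of all genes, and the TATA box letters TATAAA for Tnfaip3 alone among the 7, against 8.94%. In Tnfaip3 the TATAAA letters, not capitalised above, begin 225 bases before the transcription start. The Cyld and Tnip2 windows hold a kappa-B match as well, and neither transcript passed the test of a MALP-2 response given further on. A match describes the letters only, and a window without one says nothing of sites elsewhere.

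A20 and ABIN1 transcripts rose strongly and early. Tnfaip3 read 9.83, 9.05 and 8.67 at 2, 4 and 8 h in the IRAK2 knockout, against 7.18 at 0 h, and 10.12, 9.70 and 9.63 in wild type, against 7.16 at 0 h. Every stimulated array lay above both 0 h arrays, and 2 h was the highest time in both genotypes. Tnip1, for the partner that links A20 to ubiquitinated NEMO, read 11.68, 11.12 and 10.57 in the IRAK2 knockout, against 8.86 at 0 h, and 11.76, 11.42 and 11.34 in wild type, against 8.74. At 2 h Tnip1 was 7.08-fold above 0 h in the IRAK2 knockout and 8.11-fold in wild type, and Tnfaip3 6.27-fold and 7.78-fold. Tnip1 ranked 88th and Tnfaip3 90th of 11315 genes measured by their rise at 2 h in wild type, where 5.41% of genes were at least 2-fold up.

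Tank rose as well, by somewhat less. Its main probeset read 8.46, 8.34 and 8.10 in the IRAK2 knockout, against 6.45 at 0 h, and 8.69, 8.00 and 8.02 in wild type, against 6.48. All stimulated values again lay above both 0 h values, and 2 h was the highest time in each genotype. The rise at 2 h was 4.03-fold in the IRAK2 knockout and 4.63-fold in wild type, which ranked 172nd of 11315 genes in wild type. A second, dimmer Tank probeset read 5.41, 5.29 and 4.84 in the IRAK2 knockout, against 4.01 at 0 h, and 5.68, 5.22 and 5.18 in wild type, against 4.00.

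The other 3 genes stayed close to their unstimulated levels. Cyld, the second deubiquitinase, lay between 9.15 and 9.57 on the 4 IRAK2-knockout arrays and between 9.28 and 9.55 on the 4 wild-type arrays. Tnip2, for ABIN2, lay between 5.14 and 5.34 in the IRAK2 knockout and between 5.04 and 5.50 in wild type. Tollip lay between 9.71 and 10.05 in the IRAK2 knockout and between 9.82 and 10.002 in wild type. Ranges of 0.389 log2 for Tollip, 0.504 for Tnip2 and 0.63 for Cyld over the 11 arrays were smaller than those of 97.2%, 90.9% and 80.7% of 10859 genes, while 2.49%, 2.69% and 6.89% of genes had a larger range than Tnip1, Tnfaip3 and Tank.

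**Figure D1:**
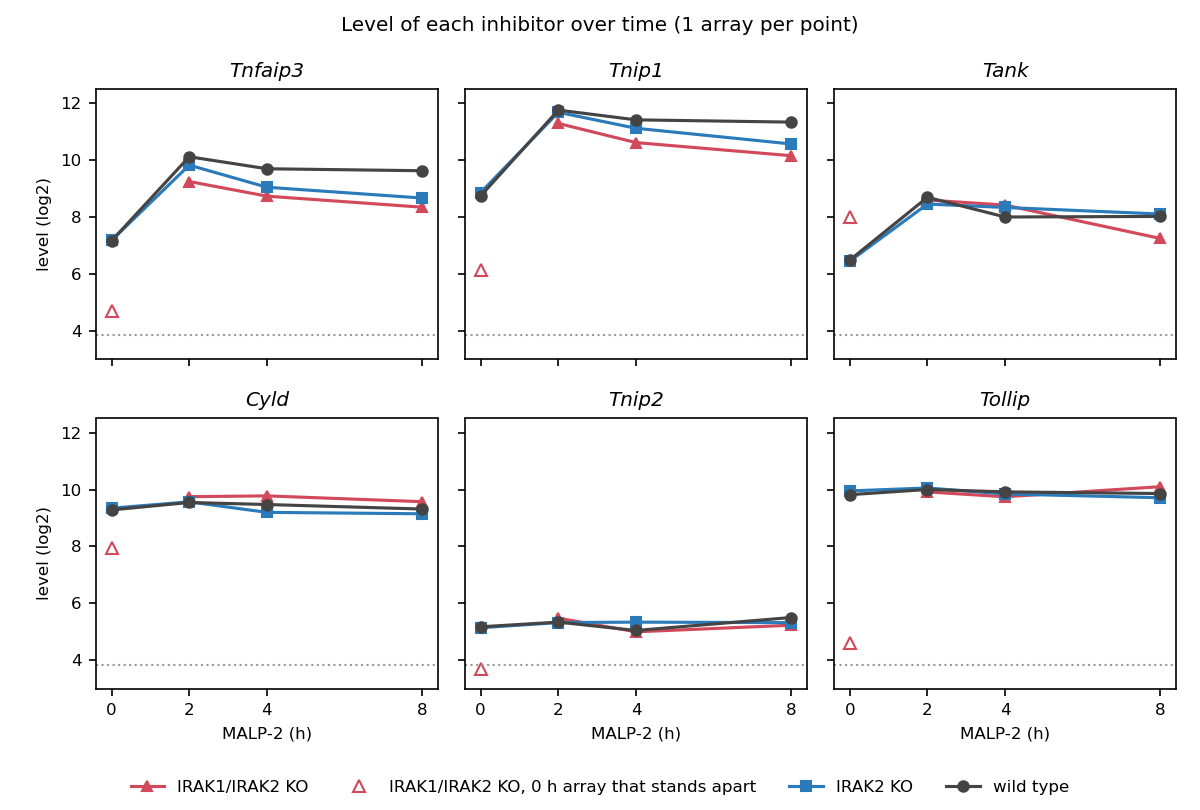
Level (log2) of the main probeset of 6 genes at 0, 2, 4 and 8 h of MALP-2, 1 array per point, in the double knockout (triangles), the IRAK2 knockout (squares) and wild type (circles); the open triangle is the array labelled double knockout at 0 h, which stands apart, and the dotted line is the floor of 3.83. Tnfaip3, Tnip1 and Tank exceed both usable 0 h readings at every later time, while Cyld, Tnip2 and Tollip stay within 0.63 log2 over the 11 other arrays.

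A limma fit on the 8 IRAK2-knockout and wild-type arrays, with genotype and time as factors, tested the response shared by both genotypes (the mean of 2, 4 and 8 h minus 0 h). A Benjamini-Hochberg adjusted p under 0.05 over all genes was called. With 1 array per group, such a p-value weighs the response against its likeness in the 2 genotypes, not against the spread between mice. Tnip1 rose by 2.51 log2 (SE 0.158, adjusted p = 1.67e-05), Tnfaip3 by 2.33 (SE 0.171, adjusted p = 3.32e-05) and Tank by 1.80 (SE 0.117, adjusted p = 1.94e-05). These are 3 of the 6 genes, where 18.9% of the 10801 genes tested were called higher. Differences of the remaining 3 were 0.15 log2 for Tnip2 (95% interval -0.095 to 0.40), 0.06 for Cyld (-0.17 to 0.29) and 0.013 for Tollip (-0.20 to 0.23), none of them called. At 8 h by itself the fitted rise was 2.15 log2 for Tnip1, 1.98 for Tnfaip3 and 1.60 for Tank, all called, where 14.7% of genes were called higher. In bulk RNA, fewer responding cells and less transcript per cell cannot be told apart.

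In the IRAK2 knockout, A20 and ABIN1 transcripts read nearest to wild type at 2 h and furthest below it at 8 h among the stimulated times, on single arrays and their main probesets. Against wild type at the same time, Tnfaip3 in the IRAK2 knockout was at 81.5% at 2 h, 63.7% at 4 h and 51.4% at 8 h, and Tnip1 at 94.8%, 81.4% and 58.7%. The second Tnfaip3 probeset, near the floor, was instead furthest below wild type at 2 h. It read 3.48, 3.78 and 3.46 at 2, 4 and 8 h in the IRAK2 knockout, against 4.63, 4.23 and 3.92 in wild type. At 8 h the Tnfaip3 difference of -0.96 log2 was the 159th lowest, and the Tnip1 difference of -0.77 the 280th lowest, of 11367 genes measured, where 1.21% of genes were at least 2-fold down. At 0 h the genotypes read within 0.12 log2 of each other for both genes. Tank showed no such order: it was at 84.8% at 2 h, 126% at 4 h and 106% at 8 h. Cyld, Tnip2 and Tollip stayed between 82.6% and 123% of wild type at all 3 times.

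Over the stimulated times together, an additive limma model of genotype and time, fitted to the 9 stimulated arrays, called none of the 6 genes in the IRAK2 knockout relative to wild type, where 0.765% of 10855 genes were called. Its p-values weigh a genotype difference against its constancy over the 3 times. Tnfaip3 differed by -0.64 log2 (95% interval -0.95 to -0.32, SE 0.139, adjusted p = 0.0997) and Tnip1 by -0.38 (-0.73 to -0.036, SE 0.152, adjusted p = 0.324). Both had an unadjusted p under 0.05, the only 2 of the 6, where 13.6% of all genes did. The other intervals were -0.40 to 0.12 for Cyld, -0.44 to 0.56 for Tank, -0.27 to 0.34 for Tnip2 and -0.36 to 0.24 for Tollip. Tnfaip3 was called when the fit held only the 2 genotypes (-0.64, adjusted p = 0.0376) and when all probesets of a gene were averaged (-0.66, adjusted p = 0.0278), which brings in a second Tnfaip3 probeset near the floor.

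A separate limma fit asked whether a genotype difference changed with time, as a slope per doubling of time from 2 to 8 h. Relative to wild type, the IRAK2-knockout slope was -0.33 log2 for Tnfaip3 (SE 0.126, unadjusted p = 0.0342, adjusted p = 0.985) and -0.35 for Tnip1 (SE 0.126, unadjusted p = 0.0291, adjusted p = 0.961). The Tnfaip3 slope turned to 0.005 when it was averaged with its second probeset, which is near the floor. The double-knockout slope of Tnip1 was -0.36 (unadjusted p = 0.0258, adjusted p = 0.271) and that of Tank -0.34 (SE 0.225, adjusted p = 0.517). None of the 6 genes was called in either slope, where 0.00921% of genes were called for the IRAK2 knockout and 0.138% for the double knockout. With an unadjusted p under 0.05 there were 2 of the 6 for the IRAK2 knockout, where 4.95% of all genes had one, and 1 of the 6 for the double knockout, where 15.0% had one. The fit has 2 residual degrees of freedom, and the order of the Tnfaip3 and Tnip1 gaps over time is given as a description.

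With both kinases missing, A20 and ABIN1 transcripts were lower at every time, and still well above unstimulated levels. Tnfaip3 read 9.25, 8.73 and 8.34 at 2, 4 and 8 h in the double knockout, against 10.12, 9.70 and 9.63 in wild type, which is 54.6%, 51.3% and 41.1% of wild type. Tnip1 read 11.29, 10.62 and 10.16 in the double knockout, against 11.76, 11.42 and 11.34 in wild type, or 72.2%, 57.4% and 44.1%. At 8 h both were at least 2-fold lower, as were 4.89% of all genes measured. For Tnfaip3 the highest of the 3 double-knockout values was below the lowest of the 3 wild-type values, and the same held for Tnip1. The share of all genes for which this holds was not counted. Even so, against the mean of the IRAK2-knockout and wild-type 0 h arrays, Tnfaip3 was 4.23-fold higher at 2 h and 2.26-fold at 8 h, and Tnip1 5.62-fold and 2.56-fold. By that measure Tnip1 ranked 65th and Tnfaip3 107th of 11811 genes at 2 h, where 4.22% were at least 2-fold up.

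Over 2, 4 and 8 h the double knockout differed from wild type by -1.04 log2 for Tnfaip3 (95% interval -1.35 to -0.72, SE 0.139, adjusted p = 6.77e-04) and by -0.82 for Tnip1 (-1.16 to -0.47, SE 0.152, adjusted p = 0.00316). These were the 2 of 6 genes called, both lower, where 17.3% of all genes were called lower and 23.7% higher. Fitted to all 12 arrays, the 0 h array that stands apart included, Tnip1 was no longer called (-1.26, adjusted p = 0.0782). The 3 stimulated double-knockout arrays also had weaker signal towards the 5′ end of transcripts than the 8 other arrays used. Their 5′ minus 3′ difference for actin (Actb) was -4.68 to -3.87 log2, against -3.72 to -3.18, and for Gapdh -5.90 to -4.36, against -3.84 to -3.42. On the stimulated arrays, summed log2 levels of the 7 macrophage markers were 67.8 to 69.8 in the double knockout, against 70.4 to 71.1 in the IRAK2 knockout and 71.0 to 71.9 in wild type, so that the double knockout did not overlap with either. Of these 7 markers, 3 were called lower than wild type in the double knockout and 1 was called higher (Mertk, 0.54, its own MALP-2 response being -1.98 log2). The 3 were Cd14 (-1.85, itself raised 3.45 log2 by MALP-2), Itgam (-0.78) and Adgre1 (-0.69, itself raised 0.835). Itgam read 3.82 at 4 h in the double knockout, below the floor. Cd68 (-0.11), Csf1r (0.26) and Lyz2 (-0.16) were not called. The 6 neutrophil markers read, 3 of them below the floor throughout, summed to 26.7 to 27.7 in the double knockout, against 28.8 to 29.8 in IRAK2-knockout cells and 29.1 to 31.5 in wild type. S100a8 (-1.55) and Camp (-1.18) were called lower in the double knockout than in wild type, of 3 neutrophil markers tested. Both were themselves raised by MALP-2, by 0.41 and 0.82 log2. The 4 B-cell markers summed to 14.1 to 14.8 in the double knockout, against 14.8 to 15.6 in IRAK2-knockout cells and 15.6 to 17.0 in wild type. Of 2 B-cell markers tested, Cd79a, close to the floor, was called lower in the double knockout than in wild type (-0.59). The 4 mast-cell and eosinophil markers summed to a higher level in the double knockout, 14.7 to 15.6, against 14.1 to 14.6 in IRAK2-knockout cells and 13.8 to 14.007 in wild type. Cpa3 was called higher (1.20, adjusted p = 0.00218), its own MALP-2 response being -0.53 log2. The other 3 were below the floor throughout, so that Cpa3 alone of these markers was measured. Sums overlapped for the 5 mesothelial and stromal markers (28.9 to 29.4 in the double knockout, 28.7 to 29.1 in the IRAK2 knockout, 28.1 to 29.4 in wild type). They also overlapped for the 4 T and NK cell markers read (13.7 to 15.0 in the double knockout, 13.4 to 14.5 in the IRAK2 knockout, 13.9 to 14.4 in wild type). Within each genotype 3 of these 4 T and NK cell markers, and 2 or 3 of the 5 mesothelial and stromal ones, were below the floor throughout. The part of these differences in the double-knockout results was not tested.

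Relative to the IRAK2 knockout, the additional loss of IRAK1 went with a further difference of -0.40 log2 for Tnfaip3 (SE 0.139, adjusted p = 0.0465) and -0.44 for Tnip1 (SE 0.152, adjusted p = 0.0491). At 2 h the double knockout held 67.0% of the IRAK2-knockout level of Tnfaip3 and 76.2% of that of Tnip1. At 8 h it held 80.0% and 75.1%. Together with Cyld these made 3 of 6 genes called, where 38.8% of all genes were called, so that the count itself says little about these genes. Both lie close to the threshold: neither was called without the 2 h arrays (adjusted p = 0.174 for Tnfaip3 and 0.0877 for Tnip1), without the 4 h arrays (0.176 and 0.253), with all 12 arrays (0.143 and 0.154) or with no filter on dim genes (0.0565 and 0.0593). With only the 2 knockouts in the fit, Tnip1 was called (0.0401) and Tnfaip3 was not (0.0593).

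Ordered by level over the 11 arrays, Tnfaip3 ran from 10.12 in wild type at 2 h through 9.83 in the IRAK2 knockout at 2 h down to 8.34 in the double knockout at 8 h and about 7.2 in both 0 h arrays (7.18 and 7.16). Neighbours in this order differed by more than the moderated residual SD of the additive fit (0.17 log2) in 6 of 10 steps. That SD is for 1 array and comes from the 9 stimulated arrays alone. A gap between 2 arrays spreads more widely, so these steps are a description. The share of such steps over all genes was not counted. For Tnip1 this held in 4 of 10 steps (SD 0.186). Double-knockout cells at 4 h and IRAK2-knockout cells at 8 h differed by less than the SD for either gene: 8.73 against 8.67 for Tnfaip3 and 10.62 against 10.57 for Tnip1. For Tank 2 of 10 steps exceeded its SD (0.27), those on either side of the double knockout at 8 h, and for Cyld 1 of 10. No step did so for Tnip2 or Tollip.

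**Figure D2:**
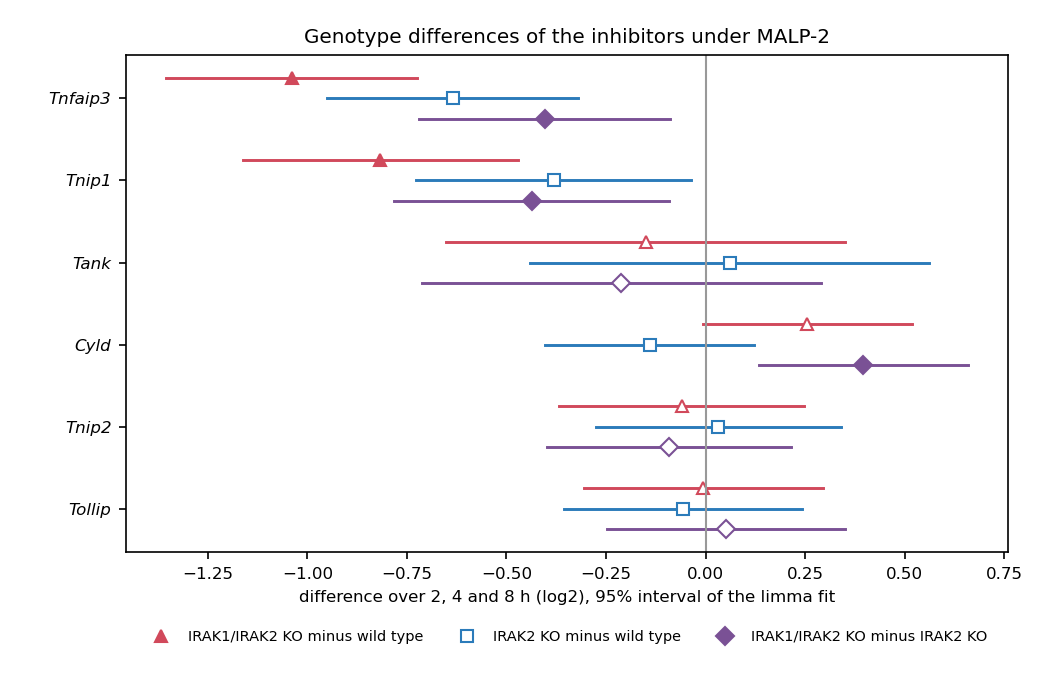
Difference in log2 level over 2, 4 and 8 h for the double knockout minus wild type (triangles), the IRAK2 knockout minus wild type (squares) and the double knockout minus the IRAK2 knockout (diamonds), with the 95% interval of the limma fit on 9 arrays; filled symbols had an adjusted p under 0.05. The intervals of Tnfaip3 and Tnip1 lie below 0 in all 3 comparisons, and those of Tank, Tnip2 and Tollip cross it in all 3.

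Tank in the double knockout was furthest below wild type at 8 h, on both of its probesets. It read 8.60, 8.42 and 7.24 at 2, 4 and 8 h in the double knockout, against 8.46, 8.34 and 8.10 in IRAK2-knockout cells and 8.69, 8.00 and 8.02 in wild type. The double-knockout values at 2 and 4 h lay at 93.6% and 134% of wild type, and the one at 8 h at 58.4% of wild type and 55.1% of the IRAK2 knockout. The dim second Tank probeset likewise read 5.39, 5.21 and 4.48 in the double knockout, against 5.41, 5.29 and 4.84 in IRAK2-knockout cells and 5.68, 5.22 and 5.18 in wild type. Over the 3 times the difference from wild type was -0.15 log2 (95% interval -0.65 to 0.35, adjusted p = 0.618), and it was 0.16 without the 8 h arrays. The 8 h value rests on 1 array.

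At 8 h minus 2 h, Tank differed by -1.35 log2 in the double knockout, by -0.35 in the IRAK2 knockout and by -0.67 in wild type. The double-knockout value was the 81st lowest of 12090 genes measured. For Tnip1 the same difference was -1.14 in the double knockout, -1.11 in the IRAK2 knockout and -0.42 in wild type, and for Tnfaip3 -0.90, -1.16 and -0.49. Set among the 612 genes at least 2-fold up at 2 h in wild type, the median change was -0.45 in the double knockout, -0.72 in the IRAK2 knockout and -0.48 in wild type. Of those genes 11.3% had a lower value than Tank in the double knockout, while 71.6% did so in the IRAK2 knockout. For Tnip1 the shares were 16.8% in the double knockout, 29.4% in the IRAK2 knockout and 52.8% in wild type, and for Tnfaip3 25.7%, 28.6% and 49.0%. On the second Tank probeset 8 h minus 2 h was -0.90 in the double knockout, -0.57 in the IRAK2 knockout and -0.50 in wild type, so that the order of the IRAK2 knockout and wild type turned. Those 612 genes were chosen on the wild-type 2 h array, so that their wild-type change uses the same array as the choice.

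**Figure D3:**
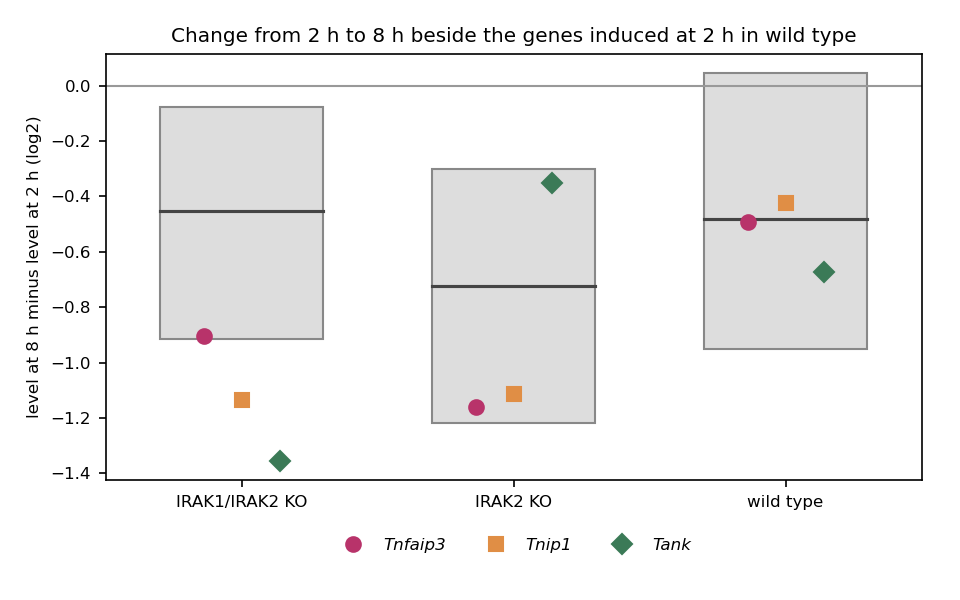
Level at 8 h minus level at 2 h (log2, 1 array against 1) in the double knockout, the IRAK2 knockout and wild type for the main probesets of Tnfaip3 (circles), Tnip1 (squares) and Tank (diamonds); grey boxes span the quartiles of the 612 genes at least 2-fold up at 2 h in wild type, with a line at the median. Tank has the lowest of the 3 values in the double knockout (-1.35) and the highest in the IRAK2 knockout (-0.35); its second probeset read -0.90 in the double knockout and -0.57 in the IRAK2 knockout.

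Against the same 612 genes, Tnfaip3 in the IRAK2 knockout lay towards the low end relative to wild type: 14.9% of them had a lower difference at 8 h and 13.9% at 4 h, the median being -0.40 and -0.23 log2. In the double knockout Tnfaip3 lay nearer to the middle: 41.0% of the genes had a lower difference at 2 h and 26.1% at 8 h, with a median of -0.72 and -0.70. For Tnip1 the shares at 2 and 8 h were 63.4% and 30.7% in the double knockout, against 60.9% and 22.9% in the IRAK2 knockout. Tank lay at the high end in the IRAK2 knockout at 8 h, where 91.7% had a lower difference, and in the double knockout at 4 h, where 92.6% did. That holds for its main probeset: the second one was at 79.3% of wild type at 8 h in the IRAK2 knockout (-0.34 log2), close to the median of the 612 genes, and at 99.1% at 4 h in the double knockout. These comparisons share their wild-type arrays.

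Cyld was the 1 gene of the 6 that read higher in the double knockout than in the IRAK2 knockout by the test. It read 9.75, 9.78 and 9.57 at 2, 4 and 8 h in the double knockout, against 9.57, 9.20 and 9.15 in IRAK2-knockout cells and 9.55, 9.47 and 9.31 in wild type. The lowest double-knockout value exceeded the highest of the other 6 by under 0.01 log2, and the share of all genes with such an order was not counted. The difference was 0.40 log2 from the IRAK2 knockout (95% interval 0.13 to 0.66, SE 0.116, adjusted p = 0.0252) and 0.26 from wild type (-0.0069 to 0.52, adjusted p = 0.108). Relative to the IRAK2 knockout 22.1% of all genes were called higher, and the Cyld call was lost without the 4 h arrays (0.30, adjusted p = 0.258) or the 8 h arrays (0.38, adjusted p = 0.0823). It was also lost with the mean of all its probesets (0.25, adjusted p = 0.0588), with only the 2 knockouts in the fit (adjusted p = 0.0721), and with all 12 arrays, where the sign turned (-0.057, adjusted p = 0.925).

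The other probesets of Cyld differed among themselves. A dim one (mean 4.55) read 4.66, 5.29 and 5.17 in the double knockout, against 4.04, 4.22 and 4.58 in IRAK2-knockout cells and 4.09, 4.25 and 4.44 in wild type. When every probeset was tested by itself, it was 0.78 log2 higher than wild type in the double knockout (SE 0.135, adjusted p = 0.00218), and its MALP-2 response was -0.40 log2 (SE 0.102, adjusted p = 0.0123). A further one close to the floor (mean 3.94) was lower in the double knockout than in the IRAK2 knockout (-0.39, SE 0.11, adjusted p = 0.0238), and the last was below the floor on all 11 arrays. In that fit Tnfaip3 and Tnip1 missed the threshold between the 2 knockouts (adjusted p = 0.0518 and 0.0536). The second probesets of Tnfaip3 and Tollip were at or above the floor on 3 and 2 of the 11 arrays and entered only the alternative that averages all probesets.

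Tnip2 and Tollip did not pass any test of genotype. Tnip2 read 5.47, 4.99 and 5.23 in the double knockout, against 5.32, 5.34 and 5.32 in IRAK2-knockout cells and 5.34, 5.04 and 5.50 in wild type. Its difference between the double knockout and wild type was -0.06 log2, with a 95% interval of -0.37 to 0.25. Tollip read 9.92, 9.75 and 10.10 in the double knockout, against 10.05, 9.84 and 9.71 in IRAK2-knockout cells and 10.002, 9.92 and 9.86 in wild type. Its difference between the double knockout and wild type was -0.0055 log2, with an interval of -0.31 to 0.29.

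Over the 11 arrays, the level of Tnfaip3 was most like that of its own partner Tnip1 (Pearson r = 0.989) among 5120 genes whose mean reached the floor and whose range was at least 1 log2. Tnfaip2, a TNF-induced gene (0.984), and the phosphatase gene Ptpre (0.984) followed. For Tnip1 the closest genes were Pde4b, a cyclic AMP phosphodiesterase (0.995), Tnfaip3 (0.989) and Traf5, for a TRAF adaptor (0.984). Tank was most like Plek, the pleckstrin gene (0.978), the NF-kB inhibitor gene Nfkbie (0.974) and Marcksl1 (0.97), and its r was 0.927 with Tnip1 and 0.886 with Tnfaip3. Marcksl1 at 8 h read 8.91 in the double knockout, against 11.45 in the IRAK2 knockout and 11.44 in wild type.

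Among the flat genes, Cyld was most like Scyl2 (0.963), Zmym4 (0.949) and Mapk1ip1l (0.939). The closest genes reached 0.842 for Tollip (Plekhg2, then Parp4 at 0.797 and Tmem127 at 0.793) and 0.703 for Tnip2 (Capns2, then Btla at 0.673 and Arg2 at 0.631). The 11 arrays share genotypes and times, so these values describe the arrays and carry no test.

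Enzymes and adaptors that work with A20 moved in both directions. Of 10 partners listed, 9 were tested, and 4 rose with MALP-2 (Malt1, Rnf11, Traf2 and Ube2n) and none was called lower (median 0.20 log2, against -0.06 over all genes). Of all genes, 18.9% were called higher and 47.0% either way. Traf2 reached the floor on 7 of the 11 arrays. It read 3.46 and 3.51 at 0 h in the IRAK2 knockout and wild type. In the double knockout it read 3.39 and 3.56 at 2 and 4 h. Malt1, a protease that cleaves A20 in lymphocytes, rose by 3.29 log2 (adjusted p = 5.52e-07), more than Tnfaip3 itself, and read 10.75, 10.24 and 10.39 at 2, 4 and 8 h in the IRAK2 knockout, against 11.39, 11.15 and 11.34 in wild type. Its difference of -0.84 log2 (SE 0.141, adjusted p = 0.0435) was called. Malt1 was also lower before stimulation, at 7.25 in the IRAK2 knockout against 7.91 in wild type at 0 h, on 1 array each. In the double knockout Malt1 read 9.69, 8.78 and 9.10, a difference of -2.10 log2 from wild type (adjusted p = 3.19e-05). Rnf11 and Ube2n, for a member of the A20 complex and for the E2 enzyme that builds the chains A20 opposes, differed by -0.38 and -0.69 in the double knockout, and Traf2 by -0.55. Tax1bp1 (0.58), Traf6 (0.61) and Ikbkg, which encodes NEMO (0.83), were called higher there. That makes 4 lower and 3 higher of 9, where 41.1% of all genes were called in either direction, and their median of -0.04 log2 stood against 0.07 over all genes.

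Genes for partners of TANK also rose. All 5 of those tested were called higher under MALP-2 (median 0.36 log2), where 18.9% of all genes were: Ikbke, for the kinase IKKi, by 1.70 (adjusted p = 3.86e-05), Tbk1 by 0.58, the adaptor genes Azi2 and Tbkbp1 by 0.36 each and the transcription factor gene Irf3 by 0.24. None was called in the IRAK2 knockout. Ikbke (-0.72) and Irf3 (-1.18) were lower in the double knockout than in wild type, and Tbk1 was higher (0.33), which makes 3 of 5 where 41.1% of all genes were called.

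Of the 4 genes for linear ubiquitin chains and the CYLD adaptor SPATA2, Rnf31, the catalytic subunit of the assembly complex, rose by 0.34 log2 (adjusted p = 0.013). It was the only 1 of the 4 called under MALP-2, where 47.0% of all genes were called either way. Rnf31 was lower in the double knockout (-0.54), as was its partner gene Rbck1 (-0.38), 2 of 4 where 41.1% of all genes were called. Of 14 other deubiquitinase genes, 6 rose and 1 fell with MALP-2 (median -0.016), where 47.0% of all genes were called either way. Usp10 rose by 0.79, Usp7 by 0.40, Usp25 by 0.37, Otud5 by 0.32, Otud4 by 0.30 and Usp4 by 0.24, and Otud1 fell by 0.92. Against wild type, Otulin (-0.50), Usp18 (-0.63) and Usp10 (-0.53) were lower in the double knockout and Usp25 (0.88) and Otud1 (0.49) higher, 5 of 14 where 41.1% of all genes were called, while none of the 14 was called in the IRAK2 knockout.

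Of the 6 TOLLIP partners, Tlr2, the receptor gene for MALP-2 itself, rose by 3.39 log2 (adjusted p = 3.78e-07), and Tlr4 (-1.06), Tom1 (-0.46) and Il1r1 (-0.35) fell. That makes 1 higher and 3 lower of 6, where 47.0% of all genes were called either way. Tlr2 was lower in the double knockout than in wild type (-0.92, adjusted p = 0.00148) and Tlr4 (0.99) and Tom1 (0.47) higher. Irak2, a deleted gene, was called lower in the double knockout (-1.28) and in the IRAK2 knockout (-1.29). In the double knockout 2 of the 6 were thus lower and 2 higher, where 41.1% of all genes were called either way. Among 10 ubiquitin ligases and readers tested, Birc3, for cIAP2, rose by 1.91, Tab2 by 0.61, Peli1 by 0.29 and Birc2 by 0.27, and Peli2 fell by 1.09. These are 4 higher and 1 lower of 10, where 47.0% of all genes were called either way. Peli2 was higher (1.01) and Map3k7, for TAK1, lower (-0.50) in the double knockout than in wild type, 1 of 10 each way where 41.1% of all genes were called. Birc3 was not called in either knockout (-0.09 log2 in the double knockout and -0.23 in the IRAK2 knockout).

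Other regulators of NF-kB or cytokine signalling, listed because they are known to be inducible, were set beside A20 and ABIN1. Of 11 listed, Socs1 was below the floor on all 11 arrays and was not tested. The other 10 rose with MALP-2, as the choice of the list implies, by 0.84 log2 (N4bp1) to 4.08 log2 (Nfkbie), and Tnfaip3 and Tnip1, at 2.33 and 2.51, lay within that range. In the double knockout 6 of the 10 were lower than wild type, with a median of -1.07, against 0.07 over all genes, of which 17.3% were called lower. Socs3, a brake on cytokine receptors, differed by -3.17 (adjusted p = 2.61e-04), the RNase gene Zc3h12a by -2.81, Nfkbiz by -2.52, Irak3, for the inhibitory pseudokinase IRAK-M, by -1.81, Nfkbib by -1.46 and Nfkbid by -0.69. The remaining 4 were not called: Nfkbia, for IkBa (-0.40, adjusted p = 0.0516), Nfkbie (-0.33), N4bp1 (-0.01) and Bcl3 (0.03). In the IRAK2 knockout none of the 10 was called (median -0.26).

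The double-knockout difference was lowest at 8 h for 5 of the 10 (Irak3, Nfkbia, Nfkbie, Nfkbiz and Socs3), as it was for Tnfaip3, Tnip1 and Tank, at 2 h for 3 and at 4 h for 2. Relative to wild type, Nfkbia differed by -0.24, -0.17 and -0.80 log2 at 2, 4 and 8 h in the double knockout, and Nfkbie by -0.14, 0.14 and -1.01, beside -0.10, 0.42 and -0.78 for Tank. Zc3h12a was furthest below wild type at 2 h (-3.08, -2.81 and -2.54), while Socs3 was furthest below it at 8 h (-1.99, -3.23 and -4.29). Over all 7 lists, 58 of 64 genes were tested. Of these 31 were called higher and 5 lower under MALP-2, 9 higher and 20 lower in the double knockout than in wild type, and 0 higher and 2 lower (Malt1 and Irak2) in the IRAK2 knockout. The shares called either way were 62.1%, 50.0% and 3.45% of the 58, against 47.0%, 41.1% and 0.765% of all genes. These shares are partly set by the choice of the lists. Irak2 is a deleted gene, and the 10 inducible regulators were listed because they are known to rise. In the IRAK2 knockout 12 of the 58, the deleted gene Irak2 among them, had an unadjusted p under 0.05, against 13.6% of all genes.

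**Figure D4:**
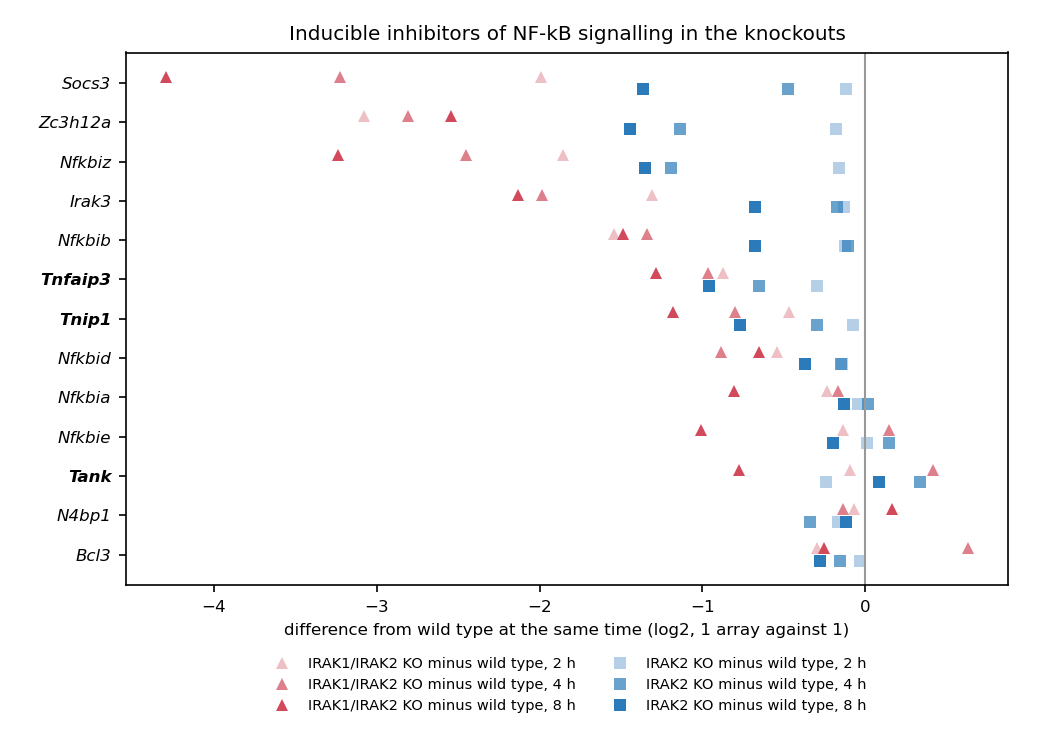
Difference from wild type at the same time (log2, 1 array against 1) at 2, 4 and 8 h (light to dark) in the double knockout (triangles) and the IRAK2 knockout (squares) for Tnfaip3, Tnip1, Tank (bold) and the 10 other inducible regulators tested, sorted by their mean difference in the double knockout. Socs3 reaches -4.29 in the double knockout at 8 h, Tnfaip3 and Tnip1 lie between -1.28 and -0.47 in the double knockout, and Tank falls below -0.24 only in the double knockout at 8 h (-0.78).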

How the data were processed

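The 12 arrays carry biotin-labelled RNA, 1 array per genotype and time. The deposited values are log2 levels per probeset, made by the authors with RMA, per the submitters' processing notes, with the version not given. Of 45101 probesets, 34958 have 1 gene symbol in the platform annotation, 34754 of them updated through the gene ID. Symbols with several probesets were read from the brightest. The number of arrays limits the precision.

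Differences were tested with limma 3.58.1 (R 4.3.3) on genes whose mean reached 3.83 log2. Single arrays were compared without a test, against 2-fold. The additive model has 4 residual degrees of freedom, the MALP-2 response 3. Genotype and preparation cannot be told apart, and the comparisons share arrays. Genes of the lists are named where called. Each gene's nearest 3 genes by Pearson correlation are named. The members and lists were chosen with earlier results of these data known. Tables were made with Python 3.11.15, pandas 2.3.3 and NumPy 2.4.6. The limma fits were tested on simulated data. Alternatives changed the filter, probeset, centring, variance prior and arrays. The test of every probeset by itself was added after seeing the data.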

Additional observations from a re-analysis of the deposited data

How the results depend on the processing

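The MALP-2 calls of Tnfaip3 (1.42 to 2.504 log2), Tnip1 (2.31 to 2.70) and Tank (1.53 to 1.91) held in all 9 alternatives, and Tnfaip3 in the double knockout against wild type in all 13 (-1.40 to -0.92, adjusted p 0.000214 to 0.0413). The number of the 6 genes called in the IRAK2 knockout against wild type was 1 in place of 0 (Tnfaip3) with the mean of all probesets and with only the 2 genotypes. In the double knockout against wild type it was 1 in place of 2 with all 12 arrays (Tnip1 lost). Against the IRAK2 knockout it was 1 in place of 3 with no filter (Cyld), without 2 h (Cyld) and with only 2 genotypes (Tnip1), and 0 without 4 h and with all 12 arrays. Signs turned for differences that were not called: in the IRAK2 knockout against wild type, Cyld (0.025), Tank (-0.059) and Tollip (0.12) with the mean of all probesets, and Tnip2 (-0.098) and Tank (-0.076) without 4 h; in the double knockout against wild type, Tollip without 2 h (0.034), without 4 h (0.078) and with 11 arrays (0.018), Tnip2 (0.046) and Tank (0.16) without 8 h, and Cyld (-0.15) and Tank (0.26) with all 12 arrays. Against the IRAK2 knockout, signs turned for Tollip with the mean of all probesets (-0.15), without 8 h (-0.12) and with all 12 arrays (-1.30), Tnip2 without 4 h (0.032), Tank without 8 h (0.11) and with all 12 arrays (0.23), and, called in the main setting, Cyld with all 12 arrays (-0.057). With the mean of all probesets the slopes of Tnfaip3 turned (0.005 in the IRAK2 knockout and 0.079 in the double knockout), as did that of Cyld in the IRAK2 knockout (0.032) and its MALP-2 response (-0.075). Without 2 h the responses of Cyld (-0.031) and Tollip (-0.052) turned. The cause was not tested. Over all genes, calls in the IRAK2 knockout against wild type were 553 with only 2 genotypes, 143 with 11 arrays, 44 without x and s probesets, 11, 6 and 14 without 2, 4 and 8 h, and 6 with all 12 arrays, in place of 83. In the double knockout against wild type they were 1161 with all 12 arrays and 2111 without 4 h, in place of 4458, and against the IRAK2 knockout 1005 and 1572, in place of 4214. Double-knockout slope calls, 15 at first, were 159 with trend and robust, 0 on hours, 41 with no filter, 42 with 2 genotypes and 7 with the mean of all probesets, and IRAK2-knockout slope calls, 1 at first, were 0 on hours and 31 with 2 genotypes. No paired analysis was possible because each group holds 1 array and the labels carry no replicate numbers.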
